A study of Capra hircus with 29 samples.

Results

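The ubiquitin-specific proteases of goat oocytes were taken as every gene of the oocyte expression table whose symbol starts with USP and a number. This gave 49 of the 21343 entries and 45 different symbols. The oocytes came from follicles of Ji'ning grey goats, of a high fertility group with more than 3 kids per birth and a low fertility group with fewer than 2 by the sample labels, while the methods of the paper word both limits so that goats at the limits are included. Each group was divided by follicle size into oocytes of large (HLO, LLO), medium (HMO, LMO) and small (HSO, LSO) follicles, with 4 samples of HSO and 5 of every other group, 29 samples in all. Expression was given as FPKM, read fragments scaled by transcript length and by library size, so levels of different genes can be compared per length. In the text a sample is named by its group and replicate number (LLO-5), and values are listed in the order of these numbers, 1 to 5, or 1, 3, 4 and 5 for HSO. Each sample was a small pool of oocytes. For the high fertility group the study states that the oocytes of a follicle size were pooled before they were divided into samples, so samples need not stand for separate goats, and the goats behind each sample are not given in the sources used here.

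Ubiquitin is a small protein that is joined to other proteins and marks them for degradation by the proteasome, for sorting into lysosomes or for a change of function. Ubiquitin-specific proteases are cysteine proteases and the largest family of deubiquitinases, the enzymes that take ubiquitin off again. The fully grown oocyte is largely silent in transcription and relies on stored mRNA and on timed protein degradation to pass through meiosis, and several members of the family act on proteins of the cell cycle, chromatin and the endosome.

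Most of the genes carried annotation of the family in the table. A term for protein deubiquitination was listed for 42 of the 49 entries, for ubiquitin-dependent protein catabolism for 41 and for thiol-dependent ubiquitin-specific protease activity for 39, while 3 entries had no term. USP6NL matched by its symbol alone: it is a GTPase-activating protein of RAB proteins and the 1 entry with a GTPase activator term, so it is described here as a name match and not as a protease. USP3, USP10, USP11 and USP46 each had 2 identifiers. The values below are those of the higher identifier, ENSCHIG00000019905 for USP3, ENSCHIG00000025916 for USP10, ENSCHIG00000017437 for USP11 and ENSCHIG00000019211 for USP46. Counts of members are counts of entries, and both identifiers of USP3 were tested in the fits over all 29 samples. The other identifiers of USP10 and USP46 were listed at 0 in every sample, that of USP11 stayed at or under 0.342 FPKM and that of USP3 at or under 1.17 FPKM. According to the methods of the paper, reads were kept only when they matched the genome at a single place. How many fragments of the copies were lost in this way was not tested, so the level of these 4 genes is uncertain to that extent. All 45 symbols were found in the RefSeq genes of assembly ARS1.2, where USP8 and USP50 are neighbours. USP50 was listed at 0 in all 29 samples.

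The oocyte label was compared with marker genes. Of 13 entries for oocyte markers 10 had a mean over 0.5 FPKM, led by ZP3 with a mean of 1406 FPKM, ZP4 with 424, GDF9 with 312, ZP2 with 245 and BMP15 with 152, whereas NOBOX (0.379) and NLRP5 (0.303) were low. The summed oocyte markers lay between 434 FPKM in LLO-2 and 9107 FPKM in HSO-5. Of 9 granulosa and cumulus markers, AMH and AMHR2 were listed at 0 in every sample, FSHR, LHCGR and CYP19A1 had means of 0.0403, 0.00211 and 0.0940 FPKM, and KITLG was the most abundant with 4.71. INHBA had a mean of 0.677 FPKM, exceeded 0.5 FPKM in 10 samples and reached 5.21, with group means of 1.33 in LMO and 1.36 in LSO against 0.187 to 0.643 in the other groups. FST (0.411 in LMO and 0.615 in LSO against 0.0815 to 0.308) and INHA (0.173 and 0.163 against 0.0119 to 0.0657) were highest in the same groups, whereas KITLG had 3.61 in LSO and 6.13 in HSO. The part of these markers in the results was not tested. The sum of the 9 was between 1.70 FPKM in LMO-2 and 15.2 FPKM in LMO-5. STAR, listed as a theca marker, had a mean of 18.8 FPKM and CYP11A1 of 0.220. The summed leukocyte markers, led by CD68, were at most 0.938 FPKM in any sample, the endothelial markers, led by VWF, at most 1.61, the erythroid marker ALAS2 at most 0.464 and the surface epithelium markers, led by KRT19, at most 7.42.

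Some samples stood apart before any USP gene was considered. The median Spearman correlation of a sample with the other samples, over the 9692 genes that exceeded 0.5 FPKM in 4 or more of the 29 samples, was 0.756 for LLO-2, 0.760 for LLO-5, 0.774 for LMO-2 and 0.789 for LSO-1, against 0.804 to 0.904 for the other 25. LLO-4 was the lowest of these 25. All 4 belong to low fertility groups. The sum of FPKM over all genes was 222697 in LMO-2 and between 347806 and 490048 in the other 28 samples, and a single gene held 9.34% of the sum in LLO-2 and 8.08% in LLO-5. Read numbers per sample were not used here, so no counting error is given for a low FPKM.

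The summed level of the USP genes moved with these samples. The sum of all 49 entries was 303, 192, 200, 246 and 346 FPKM in HLO, 257, 522, 236, 385 and 656 in LLO, 245, 242, 234, 200 and 312 in HMO, 228, 425, 217, 422 and 377 in LMO, 247, 232, 298 and 298 in HSO and 334, 252, 268, 376 and 372 in LSO. The highest sums were those of LLO-5, LLO-2 and LMO-2, all of them among the samples that stood apart, and the lowest were those of HLO-2, HLO-3 and HMO-4. LSO-1, which also stood apart, had 334 FPKM, whereas LMO-4, which did not, had 422 FPKM, close to LMO-2. Every high fertility group overlapped the low fertility group of the same follicle size. As a share of all FPKM the USP genes held 0.0420% in HMO-4 to 0.191% in LMO-2, with a median over the samples of 0.0653%. In pools of this kind fewer cells of a type and less RNA per cell cannot be told apart.

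Expression was concentrated in a few members. Of the 49 entries, 41 passed the limit of more than 0.5 FPKM in at least 4 of the 29 samples, 24 were above 0.5 FPKM in every sample, and 8 never exceeded it. Means above 10 FPKM were found for 12 entries, which together held 80.0% of the summed mean. The family was led by USP8 with a mean of 37.6 FPKM (SD 25.3, n = 29), USP46 with 30.8 FPKM (SD 16, n = 29), USP16 with 26.1 FPKM (SD 9.57, n = 29), USP44 with 24.3 FPKM (SD 12.7, n = 29) and USP1 with 22.1 FPKM (SD 8.9, n = 29). USP2 (21.2), USP7 (20.9), USP13 (14.7), USP14 (13.9), USP15 (12.3), USP6NL (11.6) and USP10 (10.6 FPKM) followed. The mean of USP8 was higher than that of 88.5% of the 9692 genes above the limit. Over the 41 members above the limit the median of the mean levels was 2.61 FPKM, against 2.67 FPKM over all 9692 genes.

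The order at the top was not the same in every sample. USP8 was the most abundant USP gene in 14 samples, USP46 in 11, USP1 in 2 and USP2 and USP7 in 1 each. Neighbours in the order of the means often changed places: USP8 exceeded USP46 in 14 of 29 samples, USP46 exceeded USP16 in 18, USP16 exceeded USP44 in 19 and USP1 exceeded USP2 in 15. A clearer step lay between USP7 and USP13 (23 of 29) and between USP32 and USP36 (27 of 29).

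**Figure D1:**
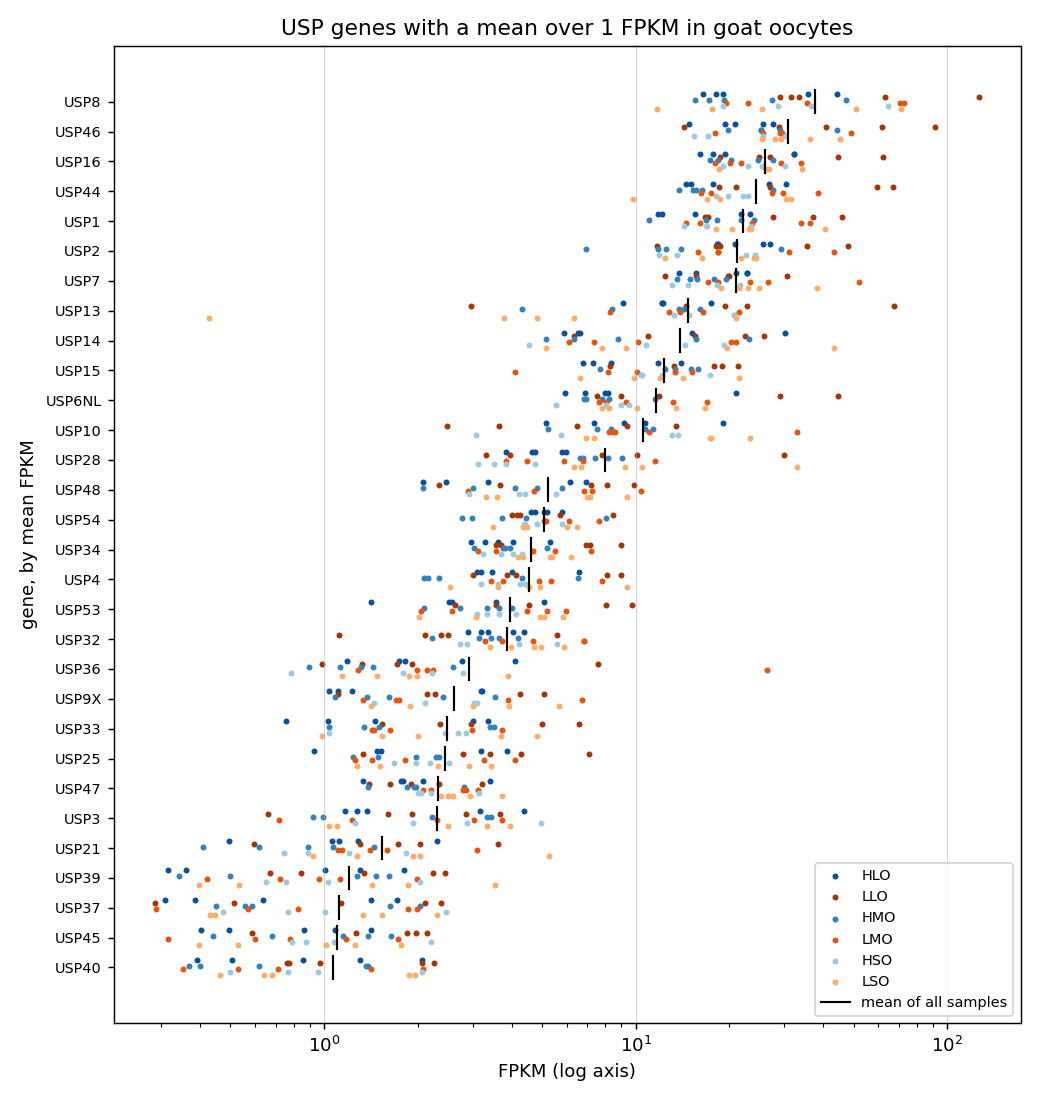
FPKM (log axis) of the 30 USP entries with a mean over 1 FPKM, by gene, with 1 point for each of the 29 samples coloured by group and a black line for the mean of all samples. USP8 is at the top with values from 11.7 to 127 FPKM, and USP13 has the widest range, from 0.428 FPKM in LSO-1 to 67.4 FPKM in LLO-5.

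The members listed under endocytosis, membrane proteins and trafficking held 39.3% of the summed mean. This share depends on the listing. It includes USP2 (6.89%) and USP10 (3.44%), for which other roles are named below, and the name match USP6NL (3.77%). USP8, which removes ubiquitin from endocytosed receptors and from the endosomal sorting machinery, read 35.8, 16.4, 19.1, 18.1 and 44.3 FPKM in HLO, 33.5, 63.1, 31.4, 29 and 127 in LLO, 27.5, 15.5, 17.2, 19.2 and 47.3 in HMO, 23, 35.4, 19.4, 70.3 and 72.7 in LMO, 36.5, 19.1, 28.6 and 64.6 in HSO and 11.7, 17.6, 25.4, 50.8 and 70.9 in LSO. It was highest in LLO-5, replicate 5 had the highest value in every group, and the high and low fertility groups overlapped at each follicle size. USP46, which works with the proteins WDR48 and WDR20, read 14.9, 19.4, 20.8, 27.7 and 25.7 FPKM in HLO, 14.3, 91.3, 28.8, 40.9 and 61.9 in LLO, 25.2, 19.7, 44.2, 25.3 and 29 in HMO, 17.9, 48.9, 29.6, 25.7 and 29.1 in LMO, 17.1, 25.7, 30.1 and 15.3 in HSO and 28, 29.2, 45.4, 36.2 and 25.5 in LSO. It was highest in LLO-2, LLO-5 and LMO-2, 3 of the samples that stood apart, while LLO-1 had the lowest value of all.

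USP2, a protease that acts on cyclin D1 and on clock proteins, read 20.8, 18.2, 18.4, 27.1 and 25.6 FPKM in HLO, 11.7, 47.9, 18.6, 18.2 and 35.4 in LLO, 6.94, 29.4, 12.5, 11.8 and 14 in HMO, 15.9, 43.4, 18.4, 30.9 and 18.4 in LMO, 13.5, 22.6, 24.2 and 11.9 in HSO and 24, 24.4, 16.4, 12.4 and 21.7 in LSO. LLO-2 and LMO-2 were again high, and HMO-1 was the lowest sample. USP10, which binds the stress granule protein G3BP1, read 7.37, 10.7, 9.18, 19.1 and 5.16 FPKM in HLO, 3.64, 6.46, 9.38, 13.5 and 2.48 in LLO, 5.24, 10.7, 11.4, 8.31 and 7.49 in HMO, 8.49, 32.8, 11, 8.6 and 8.2 in LMO, 5.78, 13.1, 13.7 and 3.07 in HSO and 23.2, 17.5, 17.3, 7.33 and 6.93 in LSO. It was highest in LMO-2 and lowest in LLO-5, so it went the other way from USP8 in LLO-5. USP6NL read 6.9, 5.92, 8.16, 7.97 and 21.1 FPKM in HLO, 7.51, 29.1, 8.99, 11.9 and 44.7 in LLO, 8.21, 6.83, 7.81, 6.91 and 11.5 in HMO, 8.05, 9.28, 7.64, 16.9 and 13.1 in LMO, 8.04, 5.54, 9.53 and 8.96 in HSO and 7.78, 8.23, 10.1, 16.7 and 13.5 in LSO. It was highest in LLO-5 and LLO-2 and, within HLO, in HLO-5. Of the lower members, USP32 ranged from 1.12 FPKM in LLO-2 to 6.85 in LMO-4, the large X-linked protease USP9X from 1.04 FPKM in HLO-2 to 6.75 in LMO-4 and USP33 from 0.758 FPKM in HLO-2 to 6.59 in LLO-5, whereas USP20 never exceeded 0.0942 FPKM.

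Among the chromatin and transcription members, 26.5% of the summed mean, USP16, a protease of ubiquitinated histone H2A, read 32.1, 17.7, 16.1, 19.3 and 32.2 FPKM in HLO, 27.1, 44.6, 18.6, 24.8 and 62.3 in LLO, 24.6, 20.3, 18.4, 17.3 and 27.5 in HMO, 20.1, 21.8, 18, 34 and 29.4 in LMO, 22.9, 19.1, 25.4 and 30.0 in HSO and 26.1, 26.2, 18.5, 34.3 and 26.9 in LSO. LLO-5 and LLO-2 were the highest samples, and the remaining values lay between 16.1 and 34.3 FPKM. USP44, which acts on histone H2B and restrains the anaphase-promoting complex at the spindle checkpoint, read 26.8, 14.5, 17.7, 15.1 and 30.3 FPKM in HLO, 27, 59.3, 21, 18.4 and 67.1 in LLO, 15.3, 15.6, 13.8, 16.3 and 27.5 in HMO, 17.4, 27.4, 16.2, 38.4 and 29.8 in LMO, 22.1, 19.8, 18.1 and 23 in HSO and 9.81, 18.7, 16.9, 30.3 and 31.5 in LSO. The same pair of samples was highest, and LSO-1 was lowest. USP7, which stabilises MDM2 and many nuclear proteins, read 22.7, 15.7, 13.7, 22.8 and 20.9 FPKM in HLO, 12.4, 19.8, 15.7, 30.5 and 19.9 in LLO, 15.7, 19.4, 15, 13.6 and 17.8 in HMO, 17.1, 52.1, 18.3, 26.6 and 23.2 in LMO, 14.7, 18.2, 21.6 and 13.1 in HSO and 38.2, 25, 18.8, 21.5 and 23 in LSO. LMO-2, LSO-1 and LLO-4 were the highest samples.

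USP36, a nucleolar protease, was between 0.784 and 7.59 FPKM in 28 samples and 26.3 FPKM in LMO-2. USP3 (mean 2.31 FPKM), USP21 (1.53), USP45 (1.1), USP42 (0.907), USP22 (0.575), USP11 (0.346) and USP49 (0.317 FPKM) were low. USP22, the deubiquitinase of the SAGA complex, was above 0.5 FPKM in 17 of 29 samples and listed at 0 in LMO-2.

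The cell cycle and DNA repair members held 17.5% of the summed mean. USP1, which with WDR48 takes ubiquitin off FANCD2 and PCNA, read 21.7, 11.8, 12.1, 15.6 and 23.4 FPKM in HLO, 17.1, 37.2, 16.7, 46 and 27.6 in LLO, 16.8, 18.3, 21.8, 11 and 23.9 in HMO, 16.1, 36.2, 14.5, 33.9 and 23.7 in LMO, 16.8, 16.9, 23.4 and 14.2 in HSO and 40.6, 18.1, 20.3, 23.1 and 23.4 in LSO. LLO-4, LSO-1, LLO-2, LMO-2 and LMO-4 were the highest samples, all of low fertility, and HMO-4 was the lowest. USP48 read 6.94, 2.08, 2.46, 3.35 and 6.17 FPKM in HLO, 3.66, 7.21, 2.34, 8.12 and 9.88 in LLO, 5.82, 4.1, 3, 2.08 and 4.84 in HMO, 4.71, 7.24, 2.9, 10.4 and 6.82 in LMO, 4.42, 2.91, 5.54 and 4.22 in HSO and 9.38, 3.31, 3.58, 7.12 and 6.99 in LSO. LMO-4, LLO-5 and LSO-1 were highest, and HMO-4 and HLO-2 were lowest. USP47 ranged from 1.33 FPKM in HLO-2 to 3.72 in LSO-1, USP37 from 0.288 FPKM in LLO-3 to 2.47 in HSO-5 and USP24 from 0.0487 FPKM in HLO-2 to 0.723 in LLO-4. USP43 was never above 0.310 FPKM. USP28 and USP13, which were also on this list, are given with the small follicles below.

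USP14, which binds the proteasome and trims ubiquitin from its substrates, read 15.1, 6.62, 6.51, 5.9 and 30.1 FPKM in HLO, 15.5, 11, 6.35, 22.4 and 25.7 in LLO, 15.6, 8.78, 5.15, 6.33 and 23.1 in HMO, 10.2, 6.13, 7.37, 21 and 20.2 in LMO, 14.4, 4.55, 10.8 and 19.2 in HSO and 7.79, 5.16, 9.31, 43.2 and 19.7 in LSO. LSO-4 was highest. Every sample numbered 2 or 3 was at or under 11 FPKM, HSO having no number 2. So were HLO-4, HMO-4, LMO-1, HSO-4 and LSO-1. USP5, which takes apart free ubiquitin chains, had a mean of 0.665 FPKM and its relative USP13 of 14.7. Among the members tied to splicing, USP15 ranged from 4.11 FPKM in LMO-2 to 21.4 in LSO-4, USP4 from 2.09 FPKM in HMO-3 to 9.41 in LSO-1, and USP39, a spliceosome protein without protease activity, from 0.316 FPKM in HLO-2 to 3.54 in LSO-1. Of the signalling members the highest were USP54 (5.08 FPKM), USP34, an enzyme of the WNT pathway (4.63), and USP53 (3.96). The members of the mitochondrion and the endoplasmic reticulum were near the bottom, with USP19, which is anchored in the endoplasmic reticulum, at a mean of 0.407 FPKM, USP30 of the outer mitochondrial membrane at 0.0891 and USP35 at 0.0385.

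Close relatives within the family differed widely in level. Of 17 pairs of paralogs with both genes in the table, 12 had the same gene higher in all 29 samples. USP46 exceeded USP12 with means of 30.8 against 0.340 FPKM, USP44 exceeded USP49 with 24.3 against 0.317, USP16 exceeded USP45 with 26.1 against 1.10, USP2 exceeded USP21 with 21.2 against 1.53, USP7 exceeded USP47 with 20.9 against 2.32 and USP28 exceeded USP25 with 7.99 against 2.45. USP33 likewise exceeded USP20, USP34 exceeded USP24, USP15 exceeded USP11, USP38 exceeded USP35, USP36 exceeded USP42 and USP1 exceeded USP12 in every sample. USP13 exceeded USP5 and USP15 exceeded USP4 in 28 samples, the exceptions being LSO-1 for USP13 and LMO-2 for USP15. USP31 exceeded USP43 in 28. USP54 was above USP53 in 23 samples, and USP30 was above USP35 in 21 and below it in 3, with both at most 0.283 FPKM.

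The members with a mean over 5 FPKM also differed in how much they varied. The SD of log2(FPKM + 1) over the 29 samples was smallest for USP54 (0.31), USP16 (0.43), USP7 (0.44), USP15 (0.51) and USP1 (0.51). It was largest for USP13 (1.03), USP8 (0.82), USP14 (0.82), USP10 (0.74) and USP28 (0.73). The median over these 15 members was 0.59, against 0.81 over the 3655 genes with a mean over 5 FPKM that passed the limit.

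To compare high with low fertility at each follicle size, limma's moderated test was run on log2(FPKM + 1) over all genes that exceeded 0.5 FPKM in 4 or more samples of the pair, and p-values were adjusted by the Benjamini-Hochberg method over all these genes. Fold changes are high minus low on the log2(FPKM + 1) scale, which understates the change of low genes. Genes were counted at an adjusted p under 0.05 and also at an unadjusted p under 0.05 with a log2 fold change beyond 1.

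In large follicles no USP gene passed either limit. HLO against LLO had 34 members among 8328 genes tested, and none had an unadjusted p under 0.05 by limma or by the exact Wilcoxon test. Over all genes, an adjusted p under 0.05 was reached by 0%, an unadjusted p under 0.05 with a log2 fold change above 1 by 1.78% and below −1 by 0.516%. For USP8 the means were 26.8 ± 12.6 FPKM in HLO and 56.7 ± 41.5 FPKM in LLO (SD, n = 5 each), with a log2 fold change of −0.92 (SE 0.53) and a 95% interval of −2.07 to 0.22. USP46 had 21.7 ± 5.11 FPKM and 47.4 ± 30.1 FPKM, with a log2 fold change of −0.87 (SE 0.52) and an interval of −1.997 to 0.25. For both genes the interval included 0. Of the 34 members 28 had a log2 fold change below 0, with a median of −0.38, while over all genes tested 57.6% were below 0 and the median was −0.09. Without LLO-2 and LLO-5 the members below 0 were 24 of 34, with a median of −0.16, against 5241 of 7965 and −0.15 over all genes. No member separated HLO from LLO without overlap, against 0.432% of all genes. Without LLO-1, USP46 alone passed the limit on the fold change and unadjusted p, against 353 genes upward and 121 downward of 8064.

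In medium follicles the picture was similar. HMO against LMO had 34 members among 8390 genes, none of which reached an unadjusted p under 0.05 by limma or by the exact Wilcoxon test, whereas over all genes 0.0715% had an adjusted p under 0.05 and 2.85% and 0.548% passed the limits on the fold change upward and downward. USP2 had 14.9 ± 8.5 FPKM in HMO and 25.4 ± 11.6 FPKM in LMO (SD, n = 5 each), a log2 fold change of −0.77 (SE 0.41) with an interval of −1.66 to 0.12, and USP7 had 16.3 ± 2.32 FPKM and 27.5 ± 14.3 FPKM, a log2 fold change of −0.61 (SE 0.34) with an interval of −1.36 to 0.14. Members below 0 were 30 of 34 with a median of −0.27, against 56.5% and −0.07 over all genes. Without LMO-2 they were 31 of 34 with a median of −0.21, against 5299 of 8260 and −0.12 over all genes. No member separated the groups, against 1.70% of all genes. Without HMO-2, USP2 alone passed the limit on the fold change and unadjusted p, against 340 genes upward and 115 downward of 8280. With the replicate number as a block, USP2, USP21 and USP36 had an unadjusted limma p under 0.05, against 1376 of 8390 genes, and no member passed the limit on the fold change.

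In small follicles USP28 and USP13 were the 2 members past the unadjusted limits. USP28 stabilises MYC and takes part in the response to DNA damage and to centrosome loss. It read 5.8, 4.66, 3.84, 4.75 and 6 FPKM in HLO, 3.94, 10.1, 3.31, 29.9 and 7.8 in LLO, 6.8, 6.61, 9.07, 7.41 and 8.13 in HMO, 4.49, 11.5, 3.83, 5.89 and 6.76 in LMO, 3.85, 3.52, 4.76 and 3.11 in HSO and 32.9, 6.36, 10.5, 9.24 and 6.67 in LSO. All 4 HSO samples were below all 5 LSO samples, LSO-1 and LLO-4 were far above every other sample, and the groups of large and of medium follicles overlapped. USP13, a relative of USP5 with a very weak protease activity that acts in autophagy and protein quality control, read 17.5, 12.2, 9.1, 12.2 and 12.2 FPKM in HLO, 22.8, 19.4, 14.5, 2.95 and 67.4 in LLO, 16.1, 14.3, 8.43, 13.8 and 4.33 in HMO, 16.5, 13.9, 8.29, 12.8 and 21.5 in LMO, 14.8, 13.3, 20.7 and 20.7 in HSO and 0.428, 4.82, 6.35, 3.78 and 20.9 in LSO. The HSO samples were within 13.3 to 20.7 FPKM, LSO-5 was just above them, and the other 4 LSO samples were below them, LSO-1 the lowest of all 29.

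**Figure D2:**
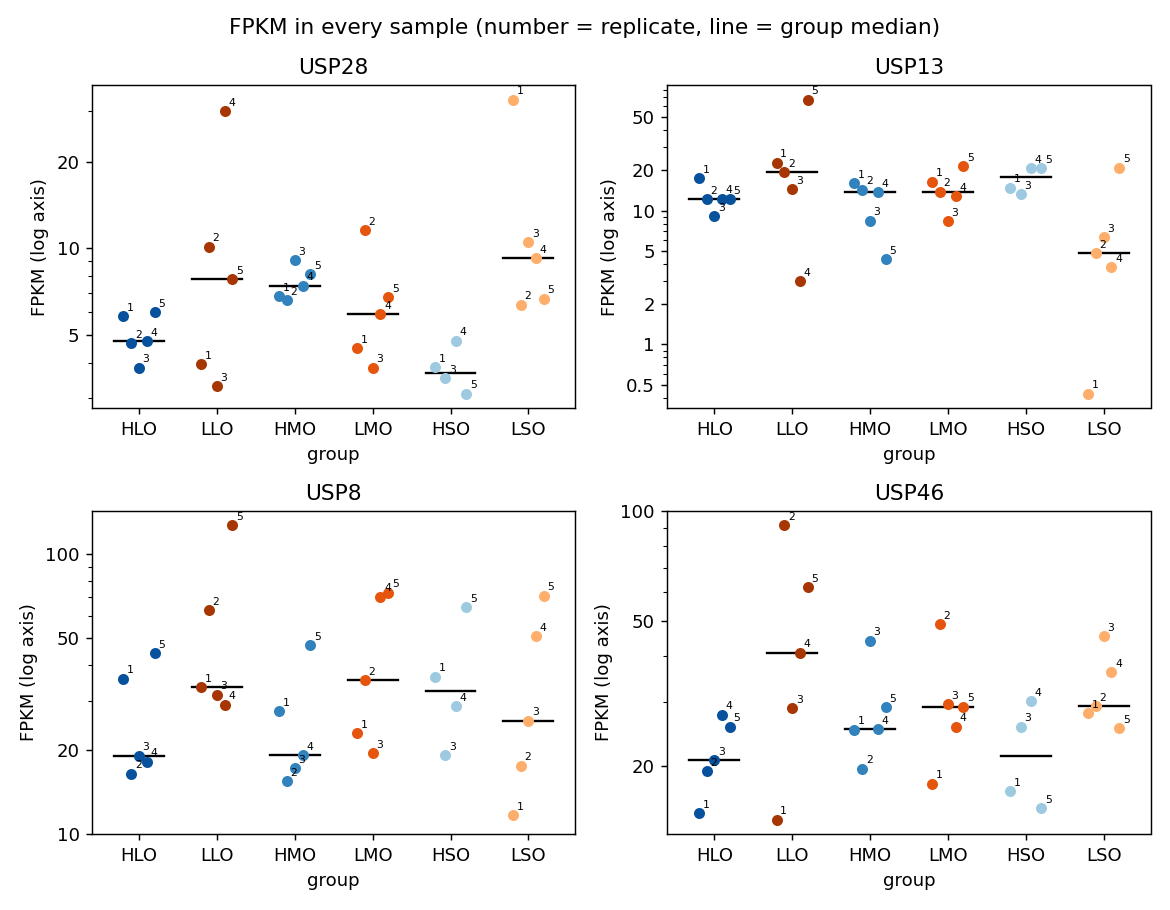
FPKM (log axis) of USP28, USP13, USP8 and USP46 in every sample of the 6 groups, with the replicate number beside each point and a black line for the group median. For USP28 the HSO samples lie between 3.11 and 4.76 FPKM, all below the LSO samples at 6.36 to 32.9 FPKM, while for USP8 replicate 5 is the highest point in every group.

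The means of USP28 were 3.81 ± 0.703 FPKM in HSO (SD, n = 4) and 13.1 ± 11.2 FPKM in LSO (SD, n = 5), a log2 fold change of −1.30 (SE 0.45). Those of USP13 were 17.4 ± 3.86 FPKM and 7.26 ± 7.94 FPKM, a log2 fold change of 1.65 (SE 0.63). The unadjusted limma p was 0.0140 for USP28 and 0.0251 for USP13, and the adjusted p over all 8376 genes was 0.880 for both, so neither passed the adjusted limit. By the unadjusted limits 1 of 34 members was higher in HSO and 1 lower, against 0.919% and 0.776% of all genes, and 0.0119% of all genes had an adjusted p under 0.05. After median-of-ratios scaling the genes past these limits were 110 upward and 55 downward, against 77 and 65 without it, and the members stayed at 1 and 1. USP28 was 1 of 34 members whose groups did not overlap, against 2.05% of all genes. The exact Wilcoxon test gave an unadjusted p of 0.0159 for USP28 and 0.190 for USP13, and the 2 members under 0.05 by it were USP28 and USP34, which limma did not place under 0.05, against 345 of all 8376 genes. Without LSO-1 the log2 fold change of USP28 was −0.92 with an unadjusted p of 0.00750 and that of USP13 was 1.14 with 0.0409, and without HSO-4 or HSO-5 the p of USP13 was 0.0580 or 0.0531. Of the 34 members 26 were below 0 with a median of −0.14, against 50.8% and −0.01 over all genes.

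Over all follicle sizes, with the size as a factor in 1 fit of the 29 samples, 41 members were among 9692 genes tested. None had an adjusted p under 0.05, against 0.0103% of all genes. At an unadjusted p under 0.05, 9 members were lower in high fertility, against 6.59% of all genes, and 1 was higher, against 3.39%. The lower ones were USP6NL (−0.52, SE 0.23), USP1 (−0.50, SE 0.19), USP46 (−0.50, SE 0.22), USP48 (−0.46, SE 0.21), USP21 (−0.42, SE 0.17), USP7 (−0.38, SE 0.18), USP34 (−0.34, SE 0.14), USP19 (−0.28, SE 0.09) and USP42 (−0.27, SE 0.12), each with its log2 fold change. Their unadjusted p ran from 0.00564 for USP19 to 0.0442 for USP7 and their adjusted p from 0.423 to 0.492. USP19, USP21, USP34, USP42 and USP48 were chosen for naming after the values were seen. The higher one was USP49, another histone H2B protease, with a log2 fold change of 0.14 (SE 0.07) and an adjusted p of 0.485. With the replicate number as a block, 14 members were lower and 1 was higher at an unadjusted limma p under 0.05, against 1461 of all 9692 genes. None had an adjusted p under 0.05 in that fit.

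The samples behind these differences can be read gene by gene. USP34 read 3.62, 2.97, 3.28, 4.03 and 5.32 FPKM in HLO, 3.7, 8.96, 3.57, 6.95 and 7.14 in LLO, 3.8, 3.04, 3.96, 3.76 and 5.2 in HMO, 3.55, 4.7, 3.13, 7.2 and 5.53 in LMO, 3.7, 3.24, 4.04 and 4.31 in HSO and 5.32, 4.36, 4.21, 6.2 and 5.39 in LSO. In 13 of 14 high fertility samples it was under the median of the low fertility group of the same follicle size. USP19 read 0.371, 0.144, 0.123, 0.0682 and 0.471 FPKM in HLO, 0.286, 1.2, 0.347, 0.858 and 0.845 in LLO, 0.267, 0.0462, 0.261, 0.137 and 0.359 in HMO, 0.431, 0.259, 0.207, 0.408 and 0.428 in LMO, 0.248, 0.42, 0.272 and 0.35 in HSO and 1.38, 0.251, 0.272, 0.548 and 0.544 in LSO, and all 14 high fertility samples were under that median, most values of both groups being below 0.5 FPKM. USP48 was also under the median in 14 of 14, USP1, USP46, USP6NL and USP21 in 12 and USP7 and USP42 in 11. USP49 read 0.445, 0.328, 0.401, 0.144 and 0.28 FPKM in HLO, 0.294, 0, 0.313, 0.164 and 0.0337 in LLO, 0.587, 0.194, 0.271, 0.635 and 0.319 in HMO, 0.542, 0.149, 0.416, 0.24 and 0.3 in LMO, 0.435, 0.465, 0.513 and 0.338 in HSO and 0.35, 0.396, 0.234, 0.248 and 0.166 in LSO. It was at or above the median in 11 of 14. In each of these genes the high and low fertility groups overlapped at every follicle size.

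Of the 41 members 36 had a log2 fold change below 0, with a median of −0.26, against 57.2% and −0.04 over all genes. Without LLO-2, LLO-5, LMO-2 and LSO-1, a choice made after the data were seen, 0 of 38 members had an unadjusted p under 0.05, against 341 of 9455 genes. In that fit 35 members were below 0 with a median of −0.13, against 6234 of 9455 and −0.07 over all genes. Leaving out 1 sample gave 5 members without HLO-2, LLO-5 or LMO-2 and 6 without HMO-4, HSO-1 or LLO-2, and over all genes 721 to 791 in these fits, against 968 with every sample. Median-of-ratios scaling gave 4 members, 1 of them higher, and turned the balance over all genes from 329 higher and 639 lower to 596 higher and 413 lower. With limma's array weights, which give less weight to samples that differ from their group, 23 members had an unadjusted p under 0.05 and 7 an adjusted p under 0.05, but so did 3278 and 691 of all 9692 genes.

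**Figure D3:**
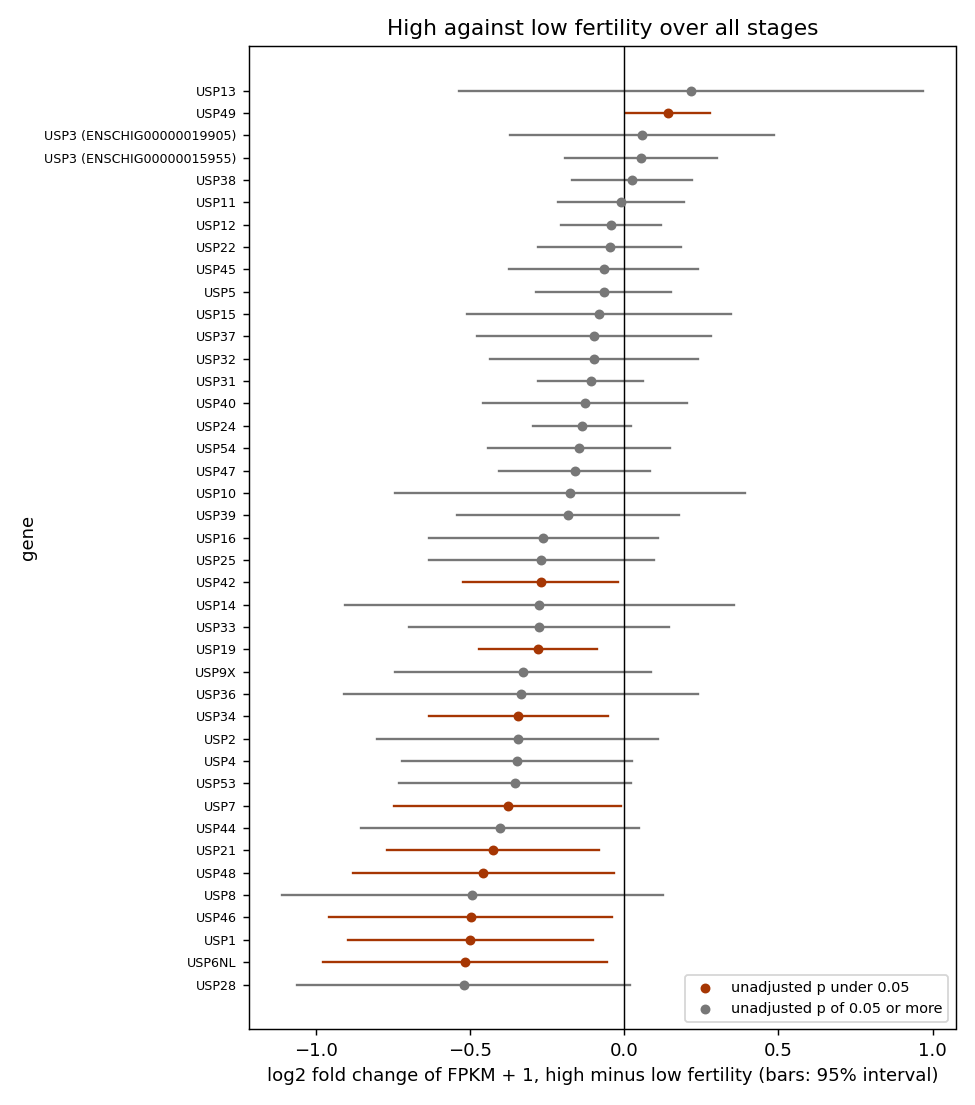
Log2 fold change of FPKM + 1, high minus low fertility over all follicle sizes, for the 41 USP entries tested, with points for the estimate, bars for the 95% interval and colour for an unadjusted p under 0.05. The points of 36 entries lie below 0, those of 10 entries are coloured, and USP13 and USP28 are at the opposite ends with intervals that include 0.

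By role, the 9 trafficking members tested, USP2, USP10 and USP6NL among them, were all below 0 (median −0.33). Of the chromatin entries 9 of 12 were below 0 (−0.16), as were 6 of 7 cell cycle members (−0.16) and 6 of 7 signalling members (−0.15). For splicing 3 of 3 were below 0 (−0.18), and for the proteasome 2 of 3 (−0.07). The chromatin entries included both identifiers of USP3, at 0.058 and 0.055, the latter listed at 0 FPKM in 19 of 29 samples. USP13 (0.22) stood on both the cell cycle and the proteasome list and was the 1 member above 0 in each. USP19 was the 1 member of the mitochondrion and endoplasmic reticulum that was tested. Members with an unadjusted p under 0.05 were 4 of 12 for chromatin, USP7, USP21, USP42 and USP49, 2 of 9 for trafficking, 2 of 7 for the cell cycle and 1 of 7 for signalling, against 968 of all 9692 genes. After median-of-ratios scaling USP49 of the chromatin members, USP1 and USP48 of the cell cycle members and USP19 were left, and no trafficking member.

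No member passed a limit for follicle size itself. In 1 fit with fertility as a factor, 0 of 41 members passed an unadjusted p of 0.05 when limma's F-test compared large, medium and small follicles, against 1.66% of all genes, and 0% of all genes had an adjusted p under 0.05. The smallest p among the members was 0.143 for USP32, with large minus small follicles at −0.37 and medium minus small at −0.03. No member had an unadjusted p under 0.05 between large and small, medium and small or large and medium follicles, against 372, 47 and 233 of all 9692 genes.

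Whether the fertility difference itself differed between follicle sizes was tested by an F-test on the 6 group means. USP13 (unadjusted p = 0.0291, limma) and USP28 (0.0474) were the 2 of 41 members under 0.05, against 7.89% of all genes, with adjusted p of 0.551 and 0.618. An adjusted p under 0.05 was reached by 0% of all genes. For USP28 the log2 fold change was −0.62 (SE 0.51) in large, 0.27 (SE 0.31) in medium and −1.30 (SE 0.45) in small follicles, and for USP13 −0.45 (SE 0.63), −0.39 (SE 0.39) and 1.65 (SE 0.63). Without the 4 samples that stood apart, and also after quantile normalization, USP28 remained under 0.05 and USP13 did not.

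The members also varied with the replicate number that the samples carry in their names. With group as a factor, 15 of 41 members had an adjusted p under 0.05 in limma's F-test over the numbers 1 to 5, against 50.5% of all genes, so the members' share was below that of all genes. USP37, USP3, USP40, USP39 and USP14 had the smallest adjusted p, from 0.000794 to 0.00140. In 13 of the 15 the mean deviation from the group mean was highest for number 5, as in USP8 (1.05 on the log2 scale) and USP14 (0.90), while USP10 was lowest there (−0.72) and, with USP36, highest for number 2. The set depended on the scaling: after median-of-ratios scaling 12 members had an adjusted p under 0.05, against 4409 of all 9692 genes, of which 7 were among the 15, USP8, USP14, USP37, USP3, USP36, USP40 and USP10, and 5 were not. What the numbers mark is not given in the sources used here.

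Some other genes of the ubiquitin system were set beside the family. The ubiquitin-activating enzyme UBA1 had a mean of 11 FPKM. Some genes of other deubiquitinase families were above USP8: OTUB1 (131 FPKM) of the OTU family and UCHL1 (118) and UCHL3 (46.5) of the UCH family. The highest of the MINDY and ZUP1 genes, MINDY3 (19.5), and of the Josephin family, ATXN3 (4.70), were below USP8. The JAMM list was made by domain family and holds members that are not deubiquitinases, among them EIF3H and COPS6. Its counts below are therefore not of deubiquitinases alone. On it EIF3H (136 FPKM), COPS6 (105) and PSMD14 (86.3) were above USP8. Of the partners of USP genes, WDR20 had a mean of 50.3 FPKM, GMPS, which binds USP7, of 41.6, WDR48 of 10.5 and G3BP1 of 5.89.

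In the same fit of high against low fertility, the number of genes with an unadjusted p under 0.05 was 0 of 3 for USP relatives outside the rule, 0 of 3 for the UCH family, 0 of 10 for the OTU family, 0 of 1 for the Josephin family, 0 of 3 for MINDY and ZUP1, 1 of 13 for the JAMM family, 1 of 2 for the ubiquitin-activating enzymes, 1 of 14 for USP partners and 1 of 8 for the proteases of SUMO, NEDD8 and ISG15, against 968 of all 9692 genes. All 4 of these genes were lower in high fertility: STAMBP (−0.49, SE 0.16), an endosomal deubiquitinase that works beside USP8, SART3 (−0.47, SE 0.17), which brings USP4 and USP15 to the spliceosome, UBA1 (−0.47, SE 0.18) and SENP2 (−0.42, SE 0.17). None had an adjusted p under 0.05. The median log2 fold change was −0.17 for the OTU family, 0.01 for the JAMM family, 0.03 for the UCH family, −0.05 for MINDY and ZUP1, 0.20 for the 1 Josephin gene, −0.10 for the USP relatives, −0.32 for the ubiquitin-activating enzymes, −0.12 for the proteases of SUMO, NEDD8 and ISG15 and −0.15 for the USP partners, against −0.26 for the USP genes. The genes that encode ubiquitin itself were also listed and are not described here.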

How the data were processed

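The authors deposited expression as FPKM, 1 value for every gene in every sample. According to the study's methods, oligo(dT) libraries were made from small pools of oocytes, reads were aligned to the goat genome, duplicates were removed with picard, and FPKM were computed by Cufflinks with the Ensembl annotation; the aligner and the build are not given in the sources used here. The 29 samples with labels were used, and 1 further value column that matched no sample was not used. Read counts were not used here, so the depth of each sample is not given. RefSeq genes of ARS1.2 were used only for names and neighbours. Members were matched by symbol, and members and gene lists were chosen with earlier results of these data known. Tests used limma 3.58.1 in R 4.3.3 (lmFit, eBayes with trend) after a pseudocount of 1 and log2, for genes that exceeded 0.5 FPKM in 4 or more samples of a comparison, two-sided, with Benjamini-Hochberg adjustment over all genes tested. Fold changes on this scale understate low genes. The code was tested on simulated data. Tables and plots used Python 3.11.15, pandas 2.3.3, numpy 2.4.6 and matplotlib 3.10.9. The samples are portions of pooled oocytes, as stated for the high fertility group, so p-values measure only the spread between these samples, which may be technical. Genes were named by rule: members past a limit in a comparison, the 12 highest means, up to 3 per direction with the largest fold change at an unadjusted p under 0.05 in each comparison of high with low, the 5 smallest and 5 largest SDs among means over 5 FPKM, members at 0 throughout and paralog pairs. Alternatives were other pseudocounts, filters, scalings, weights and tests, a replicate block, each sample left out, and the samples that stand apart left out.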

Additional observations from a re-analysis of the deposited data

Results flagged for a closer look

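Within a group, the gap between an extreme sample and its nearest neighbour, divided by the range of log2(FPKM + 1), was set against Dixon's critical value for the number of samples for 20 members in the 6 groups. In 4 of 120 such sets 1 sample lay far from the others, where chance gives about 1 in 20. These sets cover 20 of the 41 members tested and share the same 29 samples, so no conclusion about chance is drawn from this count. USP36 was not among the 20, and it read 26.3 FPKM in LMO-2, against 1.29 to 2.24 in the other LMO samples. USP44 was 27.5 FPKM in HMO-5, against 13.8 to 16.3 FPKM in the other HMO samples. USP6NL was 21.1 FPKM in HLO-5, against 5.92 to 8.16. In LMO-2, USP10 was 32.8 FPKM, against 8.2 to 11 in the other LMO samples, and USP42 was 2.3 FPKM, against 0.612 to 0.896. The fertility difference of USP13 and of USP28 differed between follicle sizes at an unadjusted p of 0.0291 and 0.0474 by limma's F-test, and neither passed after adjustment. These were 2 of 41 members, against 7.89% of all genes, so the members' share was below that of all genes.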

How the results depend on the processing

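Counts of members past the limits were set against the alternatives, and those without the samples that stand apart, together with the other scalings for the interaction and the replicate number, were chosen after seeing the data. HLO against LLO, 0 members, gave 2 of 34 with array weights (307 genes upward and 565 downward of 8328) and 0 to 1 with 1 sample left out. HMO against LMO, 0 members, gave 1 of 34 with array weights (251 and 685 of 8390) and 0 to 1. With array weights 2 of its members, USP8 and USP48, had an adjusted p under 0.05 (1011 of 8390 genes) and 16 an unadjusted p under 0.05 (3341 genes), and for HLO against LLO 0 members (2 of 8328 genes) and 6 (1372 genes). By unadjusted p alone, HLO against LLO gave USP45 and USP33 with quantile normalization (540 of 8328 genes). It gave USP53, USP46 and USP19 in 1 fit over all samples (1024 of 9692), against 0 members and 345 of 8328 genes without a change. Without the filter on low values it gave USP19 (609 of 15959). HMO against LMO gave USP8 with quantile normalization (817 of 8390) and USP43 without the filter (1302 of 16021). HSO against LSO, 2 members, gave 1 with the exact Wilcoxon test (39 genes upward and 15 downward of 8376), 1 without the samples that stand apart (31 and 17 of 8121) and 1 to 2 with 1 sample left out. High against low fertility over all sizes, 10 members at an unadjusted p under 0.05, gave 4 with median-of-ratios scaling (1009 of 9692 genes), 23 with array weights (3278 of 9692), 0 without the samples that stand apart (341 of 9455), against 968 of 9692 genes without a change, and 5 to 13 with 1 sample left out. Follicle size, 0 members, gave 1 of 41 with array weights (817 of 9692 genes). The interaction, 2 members, gave 4 of 41 with array weights (1619 of 9692 genes) and 1 of 38 without the samples that stand apart (591 of 9455), and after quantile normalization the 3 members included USP28 and not USP13. The replicate number, 15 members, gave 12 with median-of-ratios scaling (4409 of 9692 genes), 13 with quantile normalization (4375 of 9692) and 16 without the samples that stand apart (4965 of 9455). None of the members under an unadjusted p of 0.05 in a comparison of high with low changed direction, but with median-of-ratios scaling the members below 0 went from 28 to 24, from 30 to 26 and from 26 to 22 of 34 for large, medium and small follicles and from 36 to 34 of 41 over all sizes. The counts over all genes fell too, from 4801 to 4184 of 8328, from 4742 to 4104 of 8390, from 4259 to 3902 of 8376 and from 5540 to 4496 of 9692.

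With the replicate number as a replicate block the counts were 0, 0 and 2 for the pairs (over all genes 280 upward and 105 downward of 8328, 322 and 53 of 8390, and 139 and 182 of 8376), 15 of 41 over all sizes, 0 for follicle size and 3 of 41 for the interaction. Over all genes the block gave 1461 of 9692 over all sizes, against 968 without it, 277 for follicle size, against 161, and 1405 for the interaction, against 765. The members added over all sizes were USP44, USP8, USP53, USP33 and USP9X. By unadjusted p alone the block gave 3 members in HMO against LMO, USP2, USP21 and USP36, and 1376 of 8390 genes, against 0 members and 727 genes without it. The mean correlation of deviations was 0.363 between samples of the same number in different groups and −0.0911 between samples of different numbers in different groups. A sample's own number was the best match in 3 of 5, 3 of 5 and 1 of 4. Between the high and low samples of a follicle size the correlation was 0.455 to 0.709 for numbers 3 and 5. For number 4 it was −0.481 to −0.0476. These values from the data alone do not settle whether the numbers pair the samples. The cause of the differences by replicate number was not tested.

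The samples are portions of pooled oocytes, as stated for the high fertility group, so spread between goats is not measured, and fertility cannot be told apart from anything else that differed between the pools. The 4 samples that stand apart are all of low fertility, and why they do was not tested. Read numbers were not used here, so the precision of low values is not given. A p over the limit does not show that there is no difference.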
